A study of Mus musculus with 3 samples.

Results

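The nuclear genes for subunits of the 5 respiratory chain complexes were described in single cells of the mouse dentate gyrus. They were chosen by symbol from the rows of the count tables (Nduf subunits for complex I, Sdha to Sdhd for complex II, Uqcr for complex III, Cox4 to Cox8 for complex IV, Atp5 for complex V, with the Ndufaf assembly factors left out). The choice gave 85 of the 15535 genes listed in any of the 3 tables, with 38 in complex I, 4 in complex II, 9 in complex III, 16 in complex IV and 18 in complex V. Of these, 82 are protein coding and 3 are pseudogenes (Atp5k-ps2, Atp5l2-ps and Uqcrh-ps1), and 79 appear in all 3 tables. Cyc1 and Cycs, the cytochrome subunit of complex III and cytochrome c, have other symbols and fall outside the choice. Ndufa4 was kept in complex I by its symbol, although its protein is now assigned to complex IV.

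The study sequenced 1 library in each of 3 conditions, all labelled with the hGFAP-eGFP reporter strain, in which a human GFAP promoter drives a green fluorescent protein in astrocytes and neural stem cells. The control library came from 8-week-old mice in standard cages. The runner library came from their littermates after 12 days with access to a wheel, and the aged library from 14-month-old mice without a wheel. In the series text all animals are wild type and the reporter is mentioned only with the aged animals, whereas the label of every sample carries it. How many mice went into a library is not stated, no sort is described, and tissue was dissociated with trypsin.

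The respiratory chain moves electrons from NADH (complex I) and succinate (complex II) through complex III and cytochrome c to oxygen at complex IV. The proton gradient that complexes I, III and IV build up drives ATP synthesis at complex V. Most subunits are encoded in the nucleus and imported, while a few core subunits of complexes I, III, IV and V are encoded on mitochondrial DNA, and complex II is wholly nuclear. Adult neural stem cells are known to lean on glycolysis and fatty acid oxidation and to turn towards oxidative phosphorylation as they make neurons, and mature oligodendrocytes are known to get by on glycolysis.

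NRF1 is a transcription factor known to bind the promoters of many respiratory chain genes, and its palindromic word is shown first because it is shared by genes of different complexes. RefSeq promoter windows (GRCm38.p6, 250 bases before to 50 bases after each start) matched 69 of the 85 genes. The 10-base word, which is the core GCATGCGC with the letters GC put before it, was searched on both strands. It stood in windows of 5 of the 69 genes (7.25%) and of 257 of the 17492 protein-coding genes with windows (1.47%). The 5 stretches of 30 bases around it are given 5′ to 3′ in the direction of the gene, with the word in capitals.
Ndufa11, chr17:56717692-56717721, plus strand: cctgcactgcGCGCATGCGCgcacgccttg
Uqcrc1, chr9:108936668-108936697, plus strand: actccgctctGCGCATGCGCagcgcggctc
Cox6a1, chr5:115349101-115349130, minus strand: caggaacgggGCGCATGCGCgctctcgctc
Atp5g2, chr15:102671070-102671099, minus strand: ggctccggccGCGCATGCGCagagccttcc
Atp5k, chr5:108434430-108434459, minus strand: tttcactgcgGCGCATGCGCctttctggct
The word began at position -60 from the start in Ndufa11, -162 in Cox6a1, -42 in Atp5g2, -50 in Atp5k and 30 in Uqcrc1. The core alone, which every longer word holds, stood in 10 of the 69 (14.5%) against 3.94% of the protein-coding genes with windows. The YY1 word AAGATGGC was in 10 (14.5%) against 3.57%, the estrogen-related receptor word AAGGTCA in 8 (11.6%) against 4.73%, and the ETS word CCGGAAGT in 5 (7.25%) against 5.69%. These are matches of letters on both strands, described without a test.

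Each table lists unique molecules (UMIs) counted at the 3′ ends of transcripts. The tables held 2356, 3328 and 2421 barcodes for control, runner and aged, with median mitochondrially encoded (mt-) shares of 36.6%, 42.9% and 46.3% of UMIs. Barcodes with at least 200 genes and under 10% mt- UMIs numbered 514, 969 and 393, and 512, 963 and 391 of them were used after removal of 10 doublets. Control and runner shared no barcode among the cells used, and runner and aged shared 2. Clusters made without the 85 genes and without mt- genes were named from marker lists. The 7 classes compared, each called "-like", had 12 to 354 cells per library. Clusters of cycling, endothelial-like, perivascular macrophage-like and unnamed cells held 28, 19, 11 and 14 cells and were left out of the class comparisons. Neuroblast-like cells numbered 32, 171 and 12 (control, runner, aged), granule neuron-like cells 31, 58 and 14, Cajal-Retzius-like cells 49, 73 and 32, and microglia-like cells 244, 354 and 201. Astrocyte-like cells numbered 64, 124 and 52, oligodendrocyte-like cells 44, 119 and 46, and oligodendrocyte precursor-like cells 20, 32 and 22. The granule neuron-like cluster had 1 granule marker among its 10 leading genes, which were led by Meg3 and Atp1b1, and all 12 of its markers were detected. The pyramidal neuron list was also present there at 1661, 2169 and 1763 CPM (UMI counts scaled to the same total in every class), so this class may hold other excitatory neurons.

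The genes were most abundant in the granule neuron-like class and least abundant in the microglia-like class in every library. Levels are UMIs of a class summed over its cells, as CPM of all UMIs of that class. They are not divided by transcript length, so they compare classes and not genes, and less RNA per cell or more RNA from other genes cannot be told apart from less of these transcripts. Summed over the 85 genes, the granule neuron-like class had 45387, 39747 and 36232 CPM in control, runner and aged (40455 ± 4618, SD, n = 3 libraries, which are also the 3 conditions). The microglia-like class had 17769, 16663 and 15023 CPM (16485 ± 1382). The respiratory chain genes were thus 4.54, 3.97 and 3.62% of all UMIs in granule neuron-like cells and 1.78, 1.67 and 1.5% in microglia-like cells.

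Between these ends the classes lay close together. Astrocyte-like cells had 38358, 34618 and 33794 CPM, Cajal-Retzius-like cells 38496, 34779 and 28571 CPM, and oligodendrocyte precursor-like cells 35886, 33321 and 28818 CPM. The ranges of these 3 classes overlapped each other. The astrocyte-like and Cajal-Retzius-like ranges also overlapped that of the granule neuron-like class, and the precursor-like range lay just below it. Neuroblast-like cells had 29019, 28474 and 25533 CPM and oligodendrocyte-like cells 28735, 25773 and 24452 CPM. Both of these ranges lay below every astrocyte-like value, and they overlapped each other. Across libraries the neuroblast-like range also overlapped the Cajal-Retzius-like and precursor-like ranges, and the oligodendrocyte-like range overlapped the Cajal-Retzius-like one. Within each library, neuroblast-like and oligodendrocyte-like cells lay below Cajal-Retzius-like and precursor-like cells. Depth differed most for the neuroblast-like class, where 3 UMIs, the most that a count of 0 allows, correspond to 162 CPM in the aged library, while in the runner microglia-like class they correspond to 5.19 CPM.

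**Figure D1:**
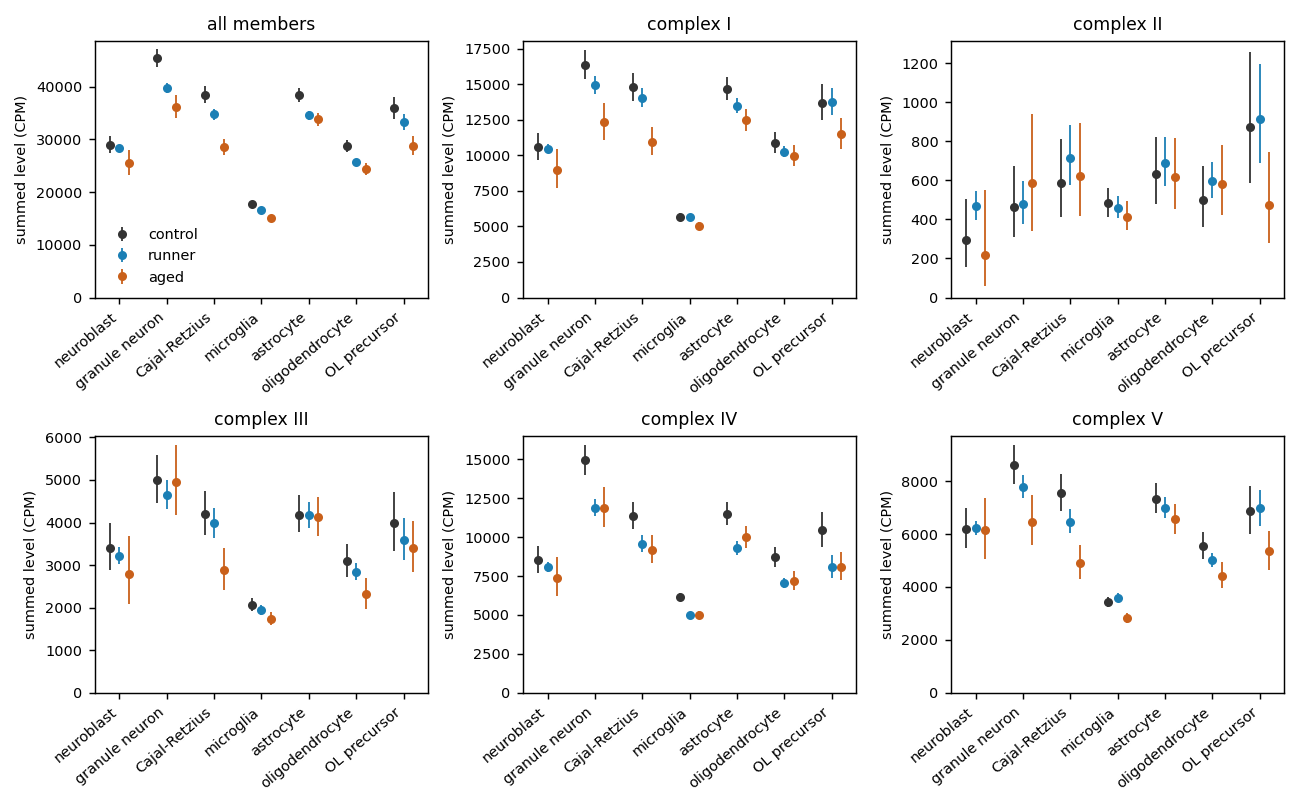
Summed level of the genes of each complex in CPM (vertical axes) by class (horizontal axis), with control in black, runner in blue and aged in orange, and 95% Poisson intervals that cover counting error only. The microglia-like class is lowest for all genes together in each library, at 15023 to 17769 CPM, and the granule neuron-like class reaches 45387 CPM in the control library.

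The order of the classes was not the same for every complex. For complex I, which takes electrons from NADH, the granule neuron-like class had 16374, 14938 and 12342 CPM and the microglia-like class 5675, 5677 and 5064 CPM. For complex IV, the cytochrome c oxidase, the values were 14946, 11886 and 11893 CPM against 6131, 4976 and 5000 CPM. Both differences were larger than the spread between libraries. For complex II, the succinate dehydrogenase, they were 465, 477 and 588 CPM against 484, 460 and 413 CPM, and here the 2 classes overlapped. The lowest mean for complex II was in neuroblast-like cells, at 295, 467 and 215 CPM, and the highest mean in oligodendrocyte precursor-like cells, at 875, 916 and 472 CPM. Neither held in every library. The runner microglia-like value was below the neuroblast-like one. The aged precursor-like value was below those of Cajal-Retzius-like (623 CPM) and astrocyte-like cells (616 CPM), among others. The aged neuroblast-like value is not far above the floor of 162 CPM.

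**Figure D2:**
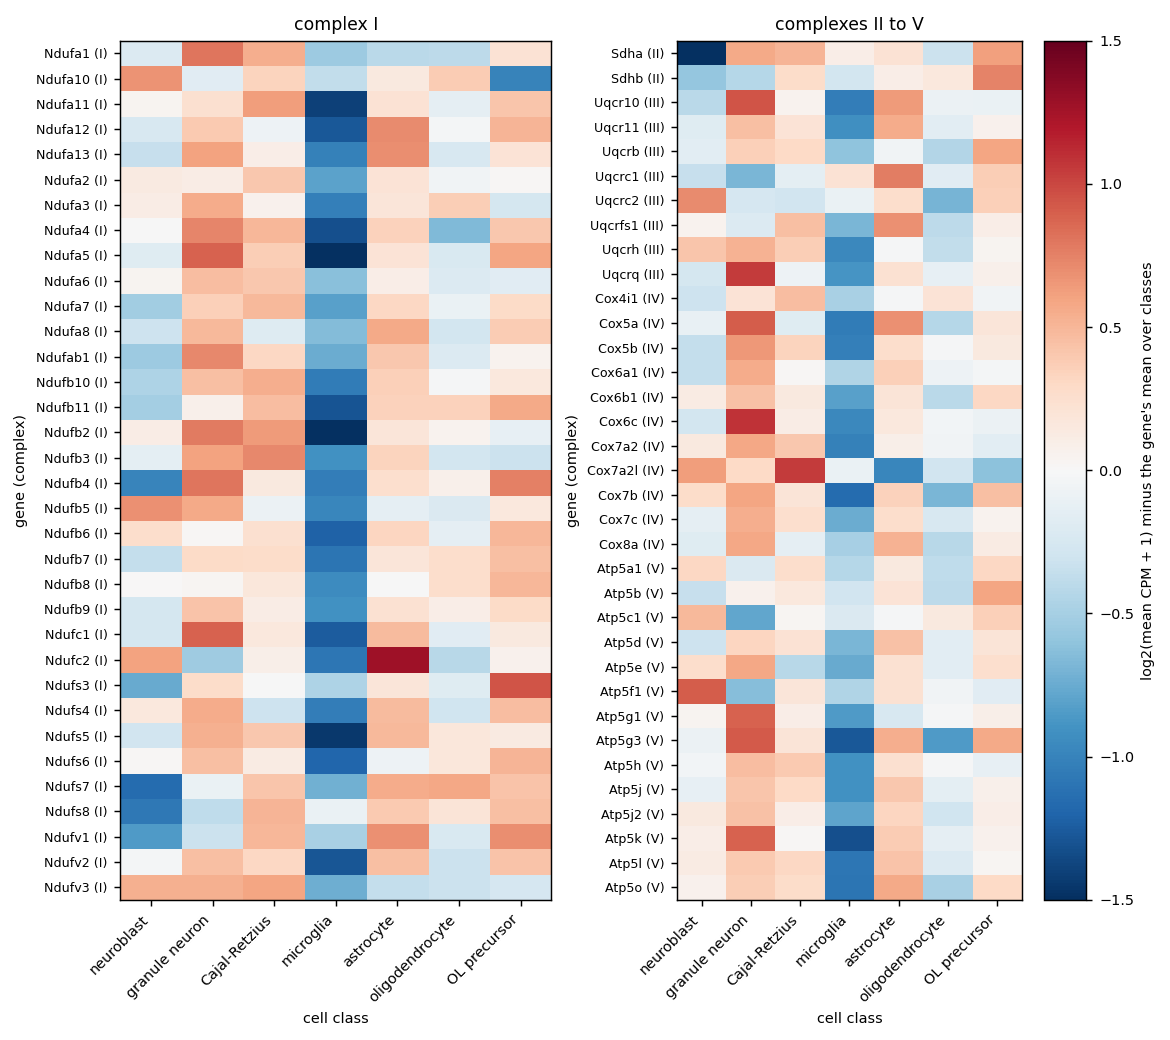
Level of most of the 70 genes that passed the count filter (rows, grouped by complex) in each of the 7 classes (columns), as log2(mean CPM + 1) minus the gene's mean over the classes. The microglia-like column is low for most genes of complexes I, III, IV and V, with Cox7a2l, Sdha and Uqcrc1 among the exceptions.

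For tests between classes, counts were summed per library and class and fitted with edgeR's quasi-likelihood test, with library as a block and Benjamini-Hochberg adjustment over the 2923 genes that passed the count filter. Of the 85 genes, 70 passed. The other 15 were too low for the filter (Atp5g2, Atp5k-ps2, Atp5l2-ps, Atp5s, Cox6a2, Cox6b2, Cox7a1, Cox7b2, Cox8b, Ndufa4l2, Ndufa9, Ndufs1, Sdhc, Sdhd and Uqcrh-ps1). Log2 fold changes are after TMM scaling, which matches the typical gene between sums, and so they can differ from the ratio of CPM values. Nothing in the labels says that the libraries come from replicate cultures or animals. The p-values thus measure only how far differences between classes varied across these 3 samples. That spread includes the condition and may be in part technical, and these parts cannot be told apart. With library as a block, a shift shared by all classes of a library is removed. Condition effects that differ between classes remain in that spread.

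Astrocyte-like cells had more transcript of many respiratory chain genes than the average of the oligodendrocyte lineage (oligodendrocyte-like and precursor-like). The summed level of precursor-like cells (35886, 33321 and 28818 CPM) was nearer to that of astrocyte-like cells (38358, 34618 and 33794 CPM). Oligodendrocyte-like cells were further below, at 28735, 25773 and 24452 CPM. Lineage values below are averages of the 2 classes, and precursor-like cells alone were not tested against astrocyte-like cells. Of the 70 genes, 37 were higher and 0 lower at an adjusted p under 0.05, against 18.7% higher and 15.2% lower over all genes tested. By complex, 13 of 35 genes were higher in complex I, 0 of 2 in complex II, 6 of 8 in complex III, 9 of 11 in complex IV and 9 of 14 in complex V. The median log2 fold change over the 70 was 0.50, against -0.03 over all genes tested. In this and the following comparisons each count of 0 printed was also 0 at an unadjusted p under 0.05 with edgeR, and DESeq2 gave 38 higher and 0 lower here. Scaled to library totals alone, with no TMM factor, the count was 15 higher and 0 lower, and the median of all genes moved to -0.30. With cells under 5% mt- UMIs 11 of 68 were higher and 0 lower, against 15% higher over all genes, and the members' median relative to all genes was 0.37 in place of 0.53.

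Ndufc2, an accessory subunit in the membrane arm of complex I (chromosome 7, 97400003 to 97407802, GRCm38), had the largest difference. Its level in astrocyte-like cells was 1093, 1133 and 732 CPM in control, runner and aged, and in the oligodendrocyte lineage 420, 340 and 339 CPM (log2 fold change 1.75, SE 0.18, adjusted p = 2.02e-17, edgeR). Every astrocyte-like value lay above every oligodendrocyte lineage value. Ndufa13, also an accessory subunit of complex I, was at 1035, 911 and 847 CPM against 546, 615 and 565 CPM (0.95, SE 0.17, adjusted p = 4.03e-07), again without overlap. The Ndufa13 gene lies wholly within Yjefn3 on the same strand, so its counts may depend on how shared reads were assigned.

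In complex III, Uqcrfs1, the Rieske iron-sulfur protein that passes electrons to cytochrome c1, was at 242, 330 and 231 CPM against 132, 166 and 159 CPM (1.13, SE 0.26, adjusted p = 0.000146, edgeR). Uqcr10, a small subunit of the same complex, was at 690, 757 and 860 CPM against 570, 420 and 393 CPM (1.01, SE 0.18, adjusted p = 4.92e-07). In both genes the groups did not overlap. In complex IV, Cox5a was at 529, 552 and 424 CPM against 290, 290 and 297 CPM (1.1, SE 0.20, adjusted p = 1.16e-06). In complex V, Atp5g3, which encodes the c subunit of the membrane rotor, was at 207, 296 and 231 CPM against 160, 161 and 191 CPM (0.91, SE 0.26, adjusted p = 0.00274). Its groups came close, and without the runner library the calls of Atp5g3 (adjusted p = 0.10) and Uqcrfs1 (adjusted p = 0.076) were lost. The count of higher genes was 20 without the runner library, 27 without control and 25 without aged.

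Other genes of energy metabolism were higher in astrocyte-like cells as well. Of the 12 mitochondrially encoded protein genes tested, 9 were higher and 0 lower, with a median log2 fold change of 0.57. Of 13 glycolysis genes 10 were higher and 0 lower, a list that holds Aldoc, which was also used as an astrocyte marker. Of 8 genes of the tricarboxylic acid cycle 4 were higher and 0 lower. Of 15 assembly factors of the respiratory chain 4 were higher and 0 lower. Cytosolic ribosomal protein genes showed no such pattern, with 3 of 79 higher and 8 lower.

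After TMM scaling, most of the genes called lower in microglia-like cells than in the other glia (astrocyte-like, oligodendrocyte-like and precursor-like) were from complex I. The summed CPM of complexes III, IV and V was also lower than in each other glia class in every library. For complex IV the mean was 5369 CPM, against 7655 to 10267 CPM in the other glia classes. Of the 70 genes 34 were lower and 3 higher, against 27.0% lower and 32.5% higher over all genes tested, with medians of -0.32 and 0.04. In complex I, 22 of 35 genes were lower and 0 higher. In complex III 2 of 8 were lower and 1 higher, in complex IV 5 of 11 lower and 1 higher, and in complex V 5 of 14 lower and 0 higher. In complex II 1 of 2 was higher and 0 lower. Scaled to library totals alone, 65 were lower and 1 higher, with the median of all genes at -0.60, so the members' median relative to all genes was -0.38 there and -0.36 after TMM scaling. With no filter on low counts 19 were lower and 5 higher.

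All 6 genes with the largest decrease were accessory subunits of complex I. Ndufa5 (chromosome 6, 24518666 to 24528013), a subunit of the matrix arm, was at 145, 125 and 97.4 CPM in microglia-like cells and at 572, 332 and 433 CPM in the other glia (log2 fold change -1.15, SE 0.18, adjusted p = 1.65e-09, edgeR). Ndufb11 (chromosome X, 20615326 to 20617619), in the membrane arm, was at 150, 111 and 118 CPM against 443, 438 and 368 CPM (-1.14, SE 0.18, adjusted p = 2.67e-09). Neither gene overlapped between the groups. Ndufs5 was at 117, 135 and 134 CPM against 449, 430 and 394 CPM (-1.09, SE 0.18, adjusted p = 2.87e-08). Ndufa12 was at 100, 133 and 128 CPM against 433, 383 and 366 CPM (-1.02, SE 0.18, adjusted p = 1.11e-07). These pairs of ranges did not overlap either. Ndufb2 was at 108, 144 and 77.3 CPM against 380, 355 and 337 CPM (-0.99, SE 0.19, adjusted p = 1.26e-06). Ndufa11, 1 of the 5 genes with the NRF1 word, was at 108, 121 and 101 CPM against 332, 334 and 332 CPM (-0.93, SE 0.18, adjusted p = 2.21e-06). The calls of these 6 genes held under each alternative that was run. Ndufs5 and Ndufa12 share more than 20% of their 3′ end words with other transcripts, so their counts depend on how shared reads were assigned.

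Cox7a2l went the other way. It encodes a paralog of the complex IV subunit Cox7a2 that is known as an assembly factor of respiratory supercomplexes, and lies on chromosome 17 at 83501918 to 83517330. It was at 323, 280 and 349 CPM in microglia-like cells and at 239, 224 and 212 CPM in the other glia (log2 fold change 1.11, SE 0.17, adjusted p = 1.11e-09, edgeR). With library totals alone the difference was 0.44 with an adjusted p of 0.0166, and it was the gene that stayed higher there. Cox7a2 itself was lower in microglia-like cells, at 334, 279 and 282 CPM against 683, 567 and 516 CPM (-0.36, SE 0.15, adjusted p = 0.0326). Sdha and Uqcrc1 were also called higher after TMM scaling (0.48 each, adjusted p = 0.0452 and 0.0213), but their CPM values were above those of the other glia in the control library (106 against 94.4 and 195 against 159) and below them in the other two.

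The microglia-like class also stood apart in genes of other kinds. Of 79 cytosolic ribosomal protein genes 78 were higher and 0 lower, with a median log2 fold change of 1.26. Of 16 genes of the response to dissociation, such as Fos and Jun, 15 were higher and 0 lower (median 4.75), and their summed level was 42754, 43489 and 38722 CPM in control, runner and aged. The same sum was 2439, 3398 and 2324 CPM in astrocyte-like cells. The part of this stress signal in the lower share of respiratory chain UMIs was not tested. Of 12 mitochondrially encoded protein genes 6 were higher and 0 lower, of 13 glycolysis genes 5 were higher and 1 lower, and of 36 mitochondrial ribosomal protein genes 1 was higher and 7 lower.

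**Figure D3:**
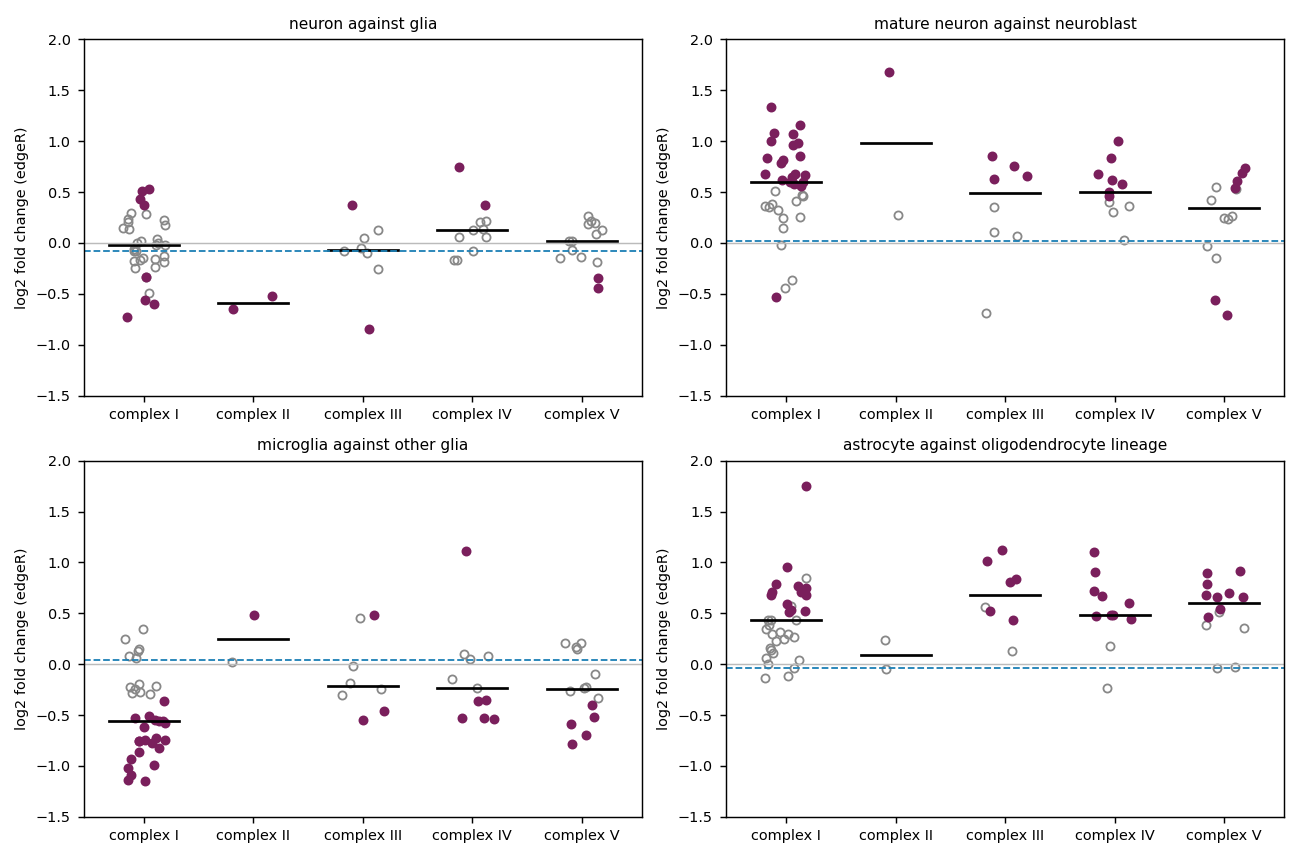
Log2 fold change of each of the 70 genes (points, grouped by complex on the horizontal axis) in the 4 comparisons between classes. Filled points passed an adjusted p of 0.05, black bars are complex medians and the blue dashed line is the median of all 2923 genes tested. In the microglia panel 22 of the 35 complex I genes are filled and below 0, and in the astrocyte panel all 37 filled points are above 0.

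Granule neuron-like and Cajal-Retzius-like cells, averaged as mature neuron classes, had more transcript of many of the genes than neuroblast-like cells. Of the 70 genes 36 were higher and 3 lower, against 18.2% higher and 17.6% lower over all genes tested, and the medians were 0.54 and 0.02. By complex, 20 of 35 genes were higher and 1 lower in complex I, 1 of 2 was higher in complex II, 4 of 8 in complex III, 7 of 11 in complex IV, and 4 of 14 were higher and 2 lower in complex V. The count of higher genes was 11 without the runner library, which holds 171 of the neuroblast-like cells, 17 without control and 37 without aged. With library totals alone 32 were higher and 3 lower, with no filter on low counts 14 and 2, and under 5% mt- UMIs 21 and 2.

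Sdha, the flavoprotein that oxidises succinate (chromosome 13, 74322254 to 74350280), was at 173, 158 and 168 CPM in the mature classes. In neuroblast-like cells it was at 45.4, 58.7 and 0 CPM, from 2, 20 and 0 UMIs (log2 fold change 1.68, SE 0.36, adjusted p = 4.77e-05, edgeR). The groups did not overlap in control and runner, but the aged value of 0 lies under a floor of 162 CPM and allows nearly the mature level. In complex I, Ndufb4 (chromosome 16, 37647170 to 37654453) was at 322, 438 and 220 CPM against 114, 176 and 53.9 CPM (1.33, SE 0.25, adjusted p = 2.3e-06). Ndufb3 was at 386, 338 and 257 CPM against 182, 162 and 215 CPM (1.16, SE 0.25, adjusted p = 6.82e-05). Both are membrane arm subunits and did not overlap between the groups. Their aged neuroblast-like values rest on few UMIs, under or not far above the floor of 162 CPM, so the separation in the aged library is uncertain. Ndufb10 was at 444, 507 and 315 CPM against 318, 223 and 108 CPM (1.08, SE 0.23, adjusted p = 3.0e-05), with an aged mature value just below the control neuroblast value. Ndufa1 was at 479, 460 and 450 CPM against 182, 244 and 323 CPM (1.0, SE 0.22, adjusted p = 6.82e-05). Ndufs7, a core iron-sulfur subunit, was at 353, 349 and 149 CPM against 159, 176 and 0 CPM (1.07, SE 0.26, adjusted p = 0.000275). Its aged mature value lies below the other neuroblast values and under the floor of 162 CPM, so the aged library shows no difference for it. Without the runner library none of these 6 calls held, with adjusted p from 0.052 for Sdha upwards.

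Of the 11 complex IV genes tested 7 were higher in this comparison and the other 4 were not called. Cox6c was at 1785, 1493 and 1337 CPM in the mature classes and at 727, 787 and 862 CPM in neuroblast-like cells (log2 fold change 1.0, SE 0.17, adjusted p = 1.73e-07, edgeR). Cox4i1, the subunit with a regulatory binding site for ATP, was at 1696, 1512 and 1465 CPM against 1090, 1028 and 862 CPM (0.68, SE 0.16, adjusted p = 0.000212). Both were separate in every library. Cox5b was at 889, 750 and 537 CPM against 477, 449 and 269 CPM (0.83, SE 0.19, adjusted p = 0.00019), also without overlap. Cox6c, Cox4i1 and Cox5b were chosen as examples after their values were seen.

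The 3 genes that were higher in neuroblast-like cells were from complexes V and I. Atp5f1, the b subunit of the peripheral stalk, was at 230, 237 and 202 CPM in the mature classes and at 272, 391 and 754 CPM in neuroblast-like cells (-0.71, SE 0.23, adjusted p = 0.00901, edgeR). Atp5c1, the gamma subunit of the central stalk, was at 238, 246 and 127 CPM against 363, 332 and 377 CPM (-0.56, SE 0.23, adjusted p = 0.0483). Ndufc2 was at 378, 503 and 192 CPM against 681, 649 and 539 CPM (-0.53, SE 0.20, adjusted p = 0.0256). The groups were separate for all 3, but DESeq2 called none of them, with adjusted p of 0.053, 0.14 and 0.11. With edgeR the call of Atp5f1 was also lost without the runner library (adjusted p = 0.172), that of Ndufc2 without control (0.14) or aged (0.0684), and that of Atp5c1 without any 1 library (0.124 to 0.187). Of 13 glycolysis genes 11 were higher in the mature classes and 0 lower (median 0.97), of 15 assembly factors 7 were higher and 0 lower, and of 79 cytosolic ribosomal protein genes 1 was higher and 50 lower.

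Neuron-like classes as a whole differed little from glia-like classes after TMM scaling. Of the 70 genes 7 were higher and 9 lower, fewer in either direction than the 25.0% higher and 27.6% lower over all genes tested, and the medians were -0.01 and -0.08. With library totals alone the split was 42 higher and 1 lower, with the median of all genes at 0.28, so the direction of the group as a whole depends on the scaling. Relative to the median of all genes the members' median was 0.07 with TMM and 0.09 with library totals. Leaving out 1 library gave 4 to 11 higher and 3 to 7 lower genes, with 4 higher and 3 lower without runner and 11 higher and 7 lower without aged. Under 5% mt- UMIs 14 were higher and 3 lower.

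The genes that were higher in neuron-like classes came from complexes I, III and IV. Cox7a2l was at 494, 470 and 695 CPM in neuron-like and 260, 238 and 246 CPM in glia-like classes (log2 fold change 0.75, SE 0.14, adjusted p = 7.29e-07, edgeR). Its call held in each alternative, with differences from 0.61 to 1.12. Ndufb2 was at 595, 453 and 467 CPM against 312, 302 and 272 CPM (0.51, SE 0.13, adjusted p = 0.000496), and Uqcrh, the hinge protein of complex III, at 823, 692 and 970 CPM against 557, 471 and 491 CPM (0.38, SE 0.11, adjusted p = 0.00217). The neuron-like values of all 3 lay above every glia-like value. Ndufa4 was at 1129, 1163 and 769 CPM against 774, 658 and 618 CPM (0.43, SE 0.10, adjusted p = 0.000157). Ndufv3, an accessory subunit near the NADH site, was at 492, 304 and 357 CPM against 227, 204 and 162 CPM (0.53, SE 0.15, adjusted p = 0.00108). Ndufa1 was at 380, 388 and 408 CPM against 249, 212 and 267 CPM (0.37, SE 0.14, adjusted p = 0.0154). The aged neuron-like value of Ndufa4 lay just below the control glia-like value. Its call was lost without the runner library (adjusted p = 0.15), as was that of Ndufa1 (adjusted p = 0.52), while that of Ndufv3 was lost without control (adjusted p = 0.088). The seventh, Cox7a2, was at 876, 822 and 676 CPM against 596, 495 and 458 CPM (0.37, SE 0.11, adjusted p = 0.00258).

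The genes that were lower in neuron-like classes came from complexes I, II, III and V. Uqcrc1, a core protein of complex III and 1 of the 5 genes with the NRF1 word, was at 112, 182 and 61.8 CPM against 168, 228 and 188 CPM (log2 fold change -0.85, SE 0.18, adjusted p = 2.2e-05, edgeR). It was lower in each library, although the runner value of neuron-like classes exceeds the control value of glia-like classes. Sdhb, the iron-sulfur subunit of succinate dehydrogenase (chromosome 4, 140961203 to 140979193), was at 188, 296 and 191 CPM against 350, 343 and 213 CPM (-0.65, SE 0.15, adjusted p = 5.58e-05). With library totals alone Sdhb was not called (-0.28, adjusted p = 0.10). Atp5c1 was at 280, 275 and 210 CPM against 289, 290 and 225 CPM (-0.44, SE 0.15, adjusted p = 0.00874). Ndufa8 was at 289, 243 and 197 CPM against 287, 259 and 207 CPM (-0.34, SE 0.15, adjusted p = 0.0488), and its difference was 0.04 with library totals alone. The call of Atp5c1 was lost without control (adjusted p = 0.0705) and without runner (0.104), and that of Ndufa8 without any 1 library (0.084 to 0.369). Ndufs8, Ndufs7, Sdha and Atp5b were also called lower, at -0.73, -0.56, -0.52 and -0.35, but their CPM differences changed sign between libraries, as did that of Ndufa8. Of 12 mitochondrially encoded protein genes 0 were higher and 10 lower, of 8 tricarboxylic acid cycle genes 0 were higher and 3 lower, and of 79 cytosolic ribosomal protein genes 72 were higher and 1 lower.

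Several subunits have paralogs that are known from heart, muscle, testis or hypoxic tissue, and in these cells the common form carried nearly all UMIs. Cox6a1, the form found in most tissues, had 687, 1297 and 418 UMIs over the 7 classes, whereas its muscle paralog Cox6a2 had 1, 8 and 6 UMIs, of which 1, 7 and 6 were in microglia-like cells. Cox8a had 1166, 2008 and 724 UMIs, and its paralog Cox8b had 10 over these classes, all in the runner microglia-like class. Cox7b2 likewise had 10 UMIs, 9 of them in runner astrocyte-like cells. Cox7a1, the heart and muscle form, was at most 40.7 CPM in any class and library. Ndufa4l2, known to be induced by hypoxia, had 2 UMIs in these classes, both in the control library, and Cox4i2 was not among the rows listed.

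Cox6b2, known as a testis form of the complex IV subunit Cox6b1, had more UMIs in 1 class than in the others. It was at 127, 79.7 and 103 CPM in astrocyte-like cells, from 11, 14 and 8 UMIs, and at 8.35, 13.8 and 3.36 CPM in microglia-like cells. No value in any other class exceeded 45.4 CPM. These are few UMIs without a test, and a count of 0 in the aged neuroblast-like or granule neuron-like class allows more than the aged astrocyte-like value. Cox6b1 in astrocyte-like cells was at 1139, 882 and 835 CPM.

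The 3 genes for the c subunit of ATP synthase differ in their import sequence and give the same mature protein. Atp5g1 was at 864, 903 and 519 CPM in granule neuron-like cells and at 214, 329 and 144 CPM in microglia-like cells, and these ranges did not overlap. Atp5g3 was at 382, 293 and 277 CPM against 50.1, 109 and 47.0 CPM in the same classes. Atp5g2, which carries the NRF1 word, did not exceed 162 CPM in any class. Atp5g1 and Atp5g2 share more than 20% of their 3′ end words with other transcripts, so their split is uncertain. Cox7a2l was highest in Cajal-Retzius-like cells, at 686, 627 and 817 CPM, with neuroblast-like cells next at 431, 508 and 646 CPM. It was lowest in astrocyte-like cells, at 196, 182 and 141 CPM, and both ends of this order held in each library.

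Other core genes were low or varied between libraries. In complex I, Ndufs1, which carries iron-sulfur clusters of the matrix arm, did not exceed 78.6 CPM, and Ndufv1, the NADH-binding flavoprotein, ran from 0 in aged neuroblast-like cells to 221 CPM in runner precursor-like cells. In complex II, the membrane anchor Sdhc was at 173, 114 and 89.9 CPM in astrocyte-like cells and the anchor Sdhd at 104, 102 and 128 CPM. Sdhb was at 633, 509 and 157 CPM in precursor-like cells, with the aged value far below the other two. In complex III, Uqcrc2, the other core protein, ran from 0 in aged oligodendrocyte-like cells to 183 CPM. In complex V, the catalytic subunit Atp5b was at 573, 696 and 524 CPM in precursor-like and at 317, 379 and 282 CPM in microglia-like cells, while its partner Atp5a1 was at 362, 458 and 262 CPM and 223, 235 and 188 CPM.

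The runner library had a slightly lower share of respiratory chain UMIs than the control library in each of the 7 classes, and the difference lay mainly in complex IV. With 1 library per group there is no replicate check and no test, the intervals below cover counting error only, and both comparisons with control share that library. The ratio of the summed genes (runner over control) was 0.981 in neuroblast-like cells (95% interval 0.926 to 1.04) and 0.876 in granule neuron-like cells (0.837 to 0.916), the ends of the range. It was 0.903 in Cajal-Retzius-like, 0.938 in microglia-like, 0.903 in astrocyte-like, 0.897 in oligodendrocyte-like and 0.929 in precursor-like cells. The mean of the log2 ratios was -0.12. The classes of a library share its preparation, so 7 classes are not 7 replicates.

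Complex IV had ratios of 0.946 in neuroblast-like (0.849 to 1.06), 0.795 in granule neuron-like, 0.843 in Cajal-Retzius-like, 0.812 in microglia-like (0.768 to 0.858), 0.807 in astrocyte-like, 0.81 in oligodendrocyte-like and 0.773 in precursor-like cells. The interval lay below 1 in 6 of the 7 classes. Complex I ratios ran from 0.912 to 1.01, complex III from 0.899 to 0.995 and complex V from 0.856 to 1.05. The interval lay below 1 for complex I in granule neuron-like (0.847 to 0.984) and astrocyte-like cells (0.858 to 0.984). For complex V it did so in Cajal-Retzius-like cells (0.762 to 0.962). The other intervals of complexes I, III and V included 1. Complex II ratios ran from 0.951 to 1.58, with intervals that included 1 in every class. Cox6a1 (chromosome 5, 115345642 to 115348981), which carries the NRF1 word, was below 1 in 7 of 7 classes, with 1544 CPM in control and 1024 CPM in runner granule neuron-like cells (ratio 0.663, 0.51 to 0.865). In microglia-like cells Cox6a1 was at 768 and 552 CPM (0.719, 0.61 to 0.848). Cox8a (chromosome 19, 7215153 to 7217616) was at 1698 CPM in control and 1108 CPM in runner Cajal-Retzius-like cells (0.653, 0.502 to 0.851).

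**Figure D4:**
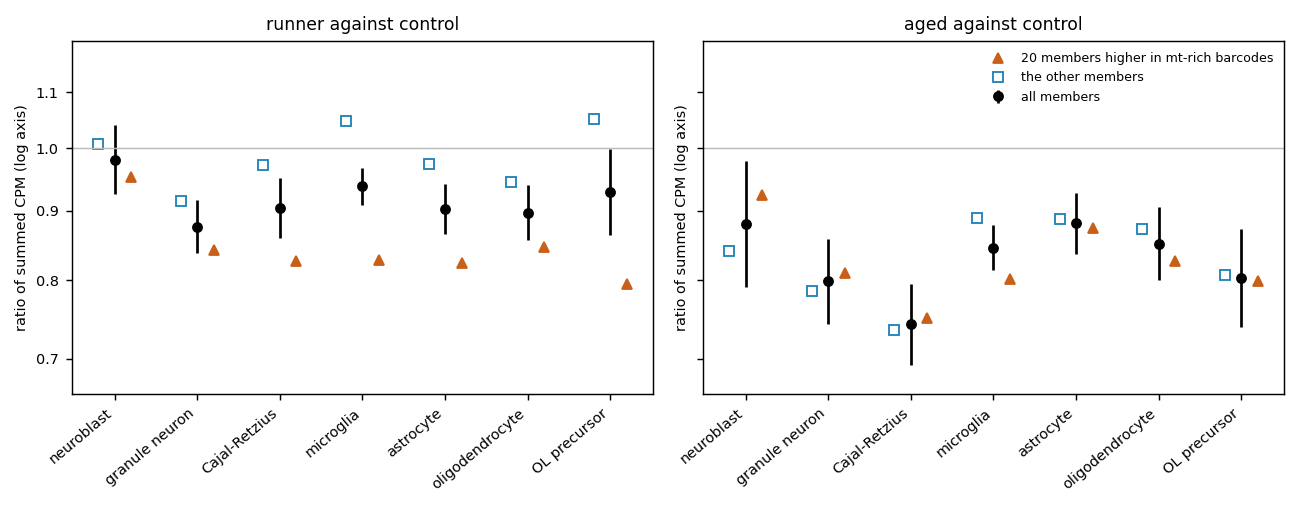
Ratio of the summed CPM to that of the control library (vertical axis) for runner and aged in each class (horizontal axis), for all 85 genes (black, with 95% counting interval), for the 20 genes that were higher in mt-rich barcodes (triangles) and for the other 65 (squares). All black points lie below 1, from 0.876 to 0.981 for runner and from 0.742 to 0.881 for aged. The kept cells of each library entered the choice of the 20 genes.

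Ndufab1 accounted for 4 of the 14 pairs of gene and class, among those with at least 50 UMIs, that were 1.5-fold or more higher in runner. It encodes the mitochondrial acyl carrier protein, which serves in fatty acid synthesis and is also a subunit of complex I, and lies on chromosome 7 at 122085403 to 122101886. In oligodendrocyte-like cells it was at 119 CPM in control and 300 CPM in runner (ratio 2.52, 1.30 to 5.45), and in astrocyte-like cells at 207 and 404 CPM (1.95, 1.15 to 3.48). In microglia-like cells it was at 103 and 171 CPM (1.66, 1.13 to 2.50). The ratio was above 1 in 5 of the 6 classes with at least 50 UMIs and past 1.5-fold in 4. In neuroblast-like cells it was at 90.8 and 253 CPM, from 4 and 86 UMIs (2.78, 1.05 to 10.4), and in Cajal-Retzius-like cells the levels were 375 and 367 CPM. Ndufab1 shares some 3′ end sequence with other genes.

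Counted gene by gene, 14 of the 402 such pairs were 1.5-fold or more higher in runner, against 11.0% of pairs over all genes, and 28 were lower, against 7.69%. In neuroblast-like cells 6 of 66 genes were past the fold higher in runner, against 17.3% over all genes, and 0 were lower, against 10.1%. The median log2 ratio there was -0.096 for the respiratory chain genes and 0.043 for all genes. The named genes in this class were all higher in runner, from at most 6 control UMIs each. They were Ndufab1, Ndufs4 (ratio 2.1, 0.862 to 6.63), Sdhb (2.01, 0.887 to 5.60) and Ndufs3 (1.88, 0.694 to 7.11), and the intervals of the last 3 included 1. In granule neuron-like cells Ndufb9, an accessory subunit of complex I, was at 880 CPM in control and 471 CPM in runner (0.535, 0.371 to 0.776), Ndufv3 at 565 and 331 CPM (0.586, 0.373 to 0.931), Ndufa2 at 781 and 502 CPM (0.644) and Atp5h, the d subunit of the peripheral stalk, at 781 and 515 CPM (0.66). Ndufc2 went from 266 to 477 CPM there (1.80, 1.04 to 3.30). In Cajal-Retzius-like cells Ndufv3 was at 571 and 269 CPM (0.471, 0.283 to 0.78), Atp5k, the e subunit and a carrier of the NRF1 word, at 816 and 473 CPM (0.579, 0.39 to 0.863) and Ndufv2 at 375 and 228 CPM (0.608), while Ndufb4 was at 229 and 399 CPM (1.75, 0.949 to 3.43).

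In glia-like classes the runner differences were of similar size. In microglia-like cells 2 of the c subunit genes of ATP synthase were higher, Atp5g3 at 50.1 CPM in control and 109 CPM in runner (2.18, 1.27 to 3.91) and Atp5g1 at 214 and 329 CPM (1.53, 1.17 to 2.03), and Ndufb9 was lower at 323 and 204 CPM (0.633, 0.485 to 0.825). In astrocyte-like cells Ndufa5 was at 587 and 336 CPM (0.572, 0.387 to 0.849), Ndufc1 at 587 and 381 CPM (0.65) and Ndufs5 at 610 and 404 CPM (0.663). In oligodendrocyte-like cells Atp5k was at 702 and 418 CPM (0.595, 0.431 to 0.828), Ndufb2 at 417 and 253 CPM (0.608) and Ndufa12 at 381 and 246 CPM (0.647), while Atp5d, the delta subunit of the central stalk, was at 190 and 296 CPM (1.56, 0.904 to 2.85). The genes past the fold in more than 1 class in the same direction were Ndufab1, Ndufb9, Ndufv2, Ndufv3, Atp5k and Cox6a1.

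Other transcripts moved with these ratios. The summed mitochondrially encoded protein genes were lower in runner in 7 of 7 classes, for example 23795 against 37369 CPM in microglia-like and 42227 against 50346 CPM in astrocyte-like cells. Cytosolic ribosomal protein genes were also lower in 7 of 7, for example 80527 against 94516 CPM in microglia-like cells. Glycolysis genes were higher in 6 of 7, for example 10745 against 8939 CPM in astrocyte-like cells. In the runner microglia-like class erythroid marker genes summed to 8993 CPM and choroid plexus markers to 7052 CPM, against 228 and 2289 CPM in control. The part of mt- content and of these other cells in the runner ratios was not tested. The kept cells of these libraries entered the choice of the 20 genes that were higher in mt-rich barcodes (described below). Without these 20 genes the mean log2 ratio was -0.02 and 4 of 7 classes were below 0, a result not independent of that choice. With cells under 5% mt- UMIs it was -0.07 over the 6 classes that could be compared, and against the aged library it was 0.15.

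The aged library had a lower share of respiratory chain UMIs than control in each class, and the ratios of complexes I, III, IV and V were all below 1. The ratio of the summed genes (aged over control) was 0.742 in Cajal-Retzius-like cells (0.693 to 0.794), 0.798 in granule neuron-like (0.743 to 0.858), 0.803 in precursor-like (0.739 to 0.872) and 0.845 in microglia-like cells (0.814 to 0.879). It was 0.851 in oligodendrocyte-like (0.80 to 0.905), 0.88 in neuroblast-like (0.79 to 0.978) and 0.881 in astrocyte-like cells (0.837 to 0.927). The mean log2 ratio was -0.27, and it was -0.15 with the runner library as the reference. Every interval of the summed genes lay below 1. By complex, the intervals included 1 for every complex in neuroblast-like cells, for complex I in oligodendrocyte-like, complex III in granule neuron-like, astrocyte-like and precursor-like, complex V in astrocyte-like cells and complex II in all classes. Complex I ratios ran from 0.741 to 0.913, complex III from 0.687 to 0.989, complex IV from 0.774 to 0.87 and complex V from 0.648 to 0.991, and those of complex II, with few UMIs, from 0.539 to 1.26.

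Of the 218 pairs of gene and class with at least 50 UMIs, 28 were 1.5-fold or more lower in aged, against 8.5% over all genes, and 2 were higher, against 8.47%. In Cajal-Retzius-like cells Atp5h was at 833 CPM in control and 365 CPM in aged (ratio 0.439, 0.238 to 0.773), Uqcr11, a small subunit of complex III, at 1029 and 473 CPM (0.46, 0.269 to 0.758), Atp5l, the g subunit of ATP synthase, at 963 and 473 CPM (0.491, 0.286 to 0.813) and Uqcrq at 653 and 344 CPM (0.527, 0.275 to 0.962). All 4 intervals lay below 1. Atp5h and Atp5l share more than 20% of their 3′ end words with other transcripts. In microglia-like cells Cox7c was at 771 and 497 CPM (0.645, 0.525 to 0.791) and Ndufa8 at 197 and 111 CPM (0.561, 0.36 to 0.86), while the intervals of Ndufb3 (0.618) and Ndufv2 (0.638) included 1. Cox7c likewise shares more than 20% of its 3′ end words.

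The 2 higher pairs were both in microglia-like cells. Ndufab1 was at 103 CPM in control and 165 CPM in aged (1.60, 1.02 to 2.52), close to its runner level of 171 CPM, and Ndufs3 at 86.2 and 131 CPM (1.52, 0.924 to 2.52). In astrocyte-like cells Ndufc1 was at 587 and 257 CPM (0.438, 0.247 to 0.747), Ndufa7 at 633 and 398 CPM (0.629, 0.391 to 0.994) and Atp5f1 at 380 and 231 CPM (0.609, 0.323 to 1.11). In oligodendrocyte-like cells Uqcr11 was at 762 and 473 CPM (0.621, 0.399 to 0.952), Atp5j, the coupling factor 6 of ATP synthase, at 702 and 419 CPM (0.597, 0.373 to 0.937) and Ndufb11 at 488 and 284 CPM (0.582, 0.327 to 1.01). Uqcr11 and Atp5j were past the fold in 2 of the 5 classes in which they could be compared, and Uqcr11 was below 1 in all 5. Atp5j overlaps Gabpa on the opposite strand, and no source used here gives the strand setting of the counting.

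Other lists were less uniform in the aged library. The summed mitochondrially encoded protein genes were lower than in control in 6 of 7 classes but close to it in astrocyte-like cells, at 50229 against 50346 CPM, and in oligodendrocyte-like cells, at 42713 against 42543 CPM. Glycolysis genes were lower in 6 of 7 classes, with 2904 against 4401 CPM in granule neuron-like and 2709 against 4032 CPM in Cajal-Retzius-like cells, and higher in oligodendrocyte-like cells. Cytosolic ribosomal protein genes were at 94334 against 94516 CPM in microglia-like cells. Without the 20 genes that were higher in mt-rich barcodes the mean log2 ratio remained at -0.27.

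The respiratory chain genes were also compared between barcodes that were left out for 10% or more mt- UMIs and those kept. These are deposited barcodes with at least 200 genes, 1789, 1990 and 1877 of them against 514, 969 and 393. They were taken over all cell classes, and levels are CPM of the UMIs that are not mt-. The sum of the 85 genes was 28679, 27134 and 23310 CPM in barcodes under 10% and 72628, 82779 and 77530 CPM in the mt-rich ones (control, runner, aged). Nuclear transcripts of the chain were thus higher in the mt-rich barcodes of each library. Among the classes described above, the highest level on the same scale was 48091 CPM, in control granule neuron-like cells. Cell types outside these classes were not compared, and the part of cell type in the mt-rich level was not tested.

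**Figure D5:**
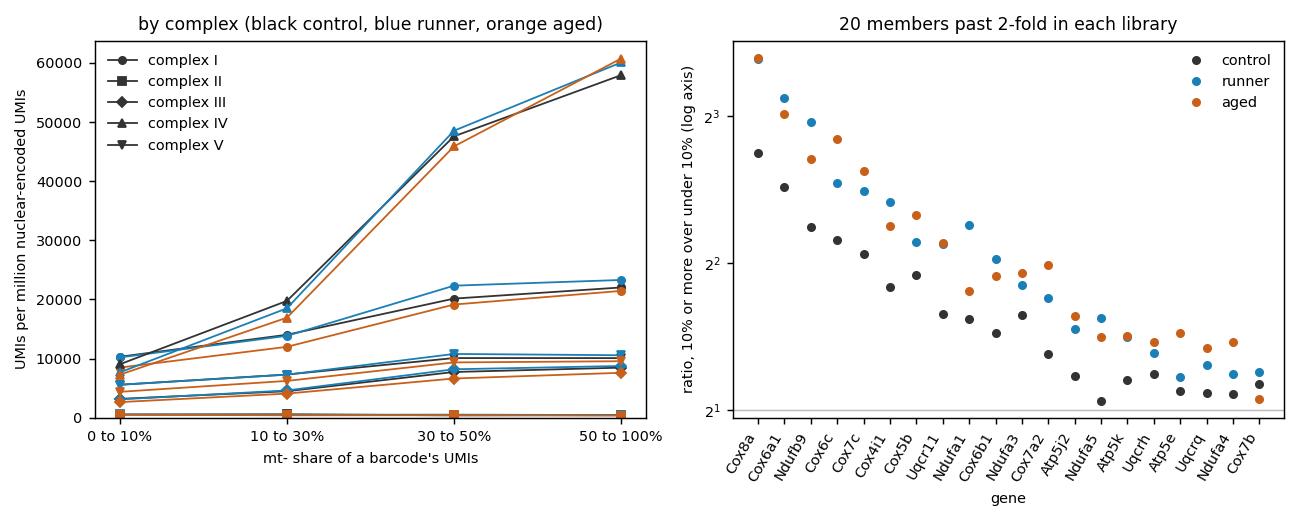
Left, summed level of each complex in CPM of UMIs that are not mt- (vertical axis) by bin of mt- share (horizontal axis) in the 3 libraries. Right, ratio of mt-rich to other barcodes for the 20 genes that were at least 2-fold higher in each library (log axis), from which Cox8a stands out at 6.72, 10.5 and 10.5.

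The difference was largest in complex IV and not seen in complex II. Complex IV was at 9044 and 38425 CPM in the kept and the mt-rich barcodes of the control library, at 7674 and 44321 CPM in runner and at 7285 and 43807 CPM in aged. Complex II, whose members are all nuclear, was at 546 and 485 CPM in control, 556 and 503 in runner and 512 and 406 in aged, lower in the mt-rich barcodes of each library. Of 75 genes with at least 150 UMIs, 20 were 2-fold or more higher in each of the 3 libraries and 0 were lower, against 9.95% higher and 19.7% lower over all genes. Of the 20, 9 belong to complex IV (Cox4i1, Cox5b, Cox6a1, Cox6b1, Cox6c, Cox7a2, Cox7b, Cox7c and Cox8a), 5 to complex I (Ndufa1, Ndufa3, Ndufa4, Ndufa5 and Ndufb9), 3 to complex III (Uqcr11, Uqcrh and Uqcrq) and 3 to complex V (Atp5e, Atp5j2 and Atp5k).

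Cox8a had ratios of 6.72, 10.5 and 10.5 in control, runner and aged, Cox6a1 of 5.74, 8.71 and 8.10, and Ndufb9 of 4.75, 7.79 and 6.52. Cox6c had 4.46, 5.83 and 7.19, Cox7c 4.17, 5.61 and 6.18, and Cox4i1 3.57, 5.34 and 4.77. The choice of the 20 genes fixed the direction in each library. Core subunits lay on both sides of 1. Sdha had ratios of 1.44, 1.67 and 1.1, Ndufs1 of 1.24, 1.17 and 1.52 and Atp5a1 of 1.16, 1.29 and 1.37. Sdhb was at 0.698, 0.591 and 0.575, Uqcrc1 at 0.752, 0.75 and 0.697 and Uqcrc2 at 0.802, 0.634 and 0.566. These 6 genes were named after their values were seen. The mt-rich barcodes had fewer genes, with medians of 305, 287 and 292 against 791, 946 and 768, and fewer UMIs, with 728, 771 and 834 against 1457, 1754 and 1413. Their cell types differed too, with the microglia list at 4004, 2607 and 3930 against 15561, 13383 and 19138 CPM and the astrocyte list at 9282, 10735 and 9206 against 3403, 3081 and 3713 CPM. The part of RNA quality and of cell type in these ratios was not tested.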

How the data were processed

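UMI counts per gene and barcode were taken from the 3 deposited tables (control, runner, aged), which the authors made from Chromium Single Cell 3′ v2 libraries with Cell Ranger 2.1.1, Seurat 3.1.0 and GRCm38, per the submitters' processing notes. No source used here gives the annotation, the strand setting or any filter on barcodes. Barcodes with at least 200 genes and under 10% mt- UMIs were kept, and doublets were removed with Scrublet in Scanpy 1.11.5 (expected rate 0.05). Leiden clustering (2000 variable genes without the respiratory chain and mt- genes, 30 components, 15 neighbours, resolution 1.0, seed 1) gave clusters that were named from marker lists. Class differences were tested with edgeR 4.0.16 (R 4.3.3) on counts summed per library and class with at least 10 cells, with TMM, filterByExpr and library as block. DESeq2 1.42.0 was an alternative, and the edgeR fit was tried on simulated counts for neuron-like against glia-like classes. Runner and aged were compared with control, class by class, as ratios of CPM with exact 95% intervals that cover counting error only.

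Named were, per class comparison, up to 6 genes in each direction with the largest change among those called with the same sign in every library. The sign was taken from means of log2(CPM + 1), so it can differ from that of the mean CPM printed. For runner and aged they were, in classes with at least 30 cells in both libraries, up to 4 genes in each direction past 1.5-fold with at least 50 UMIs, together with a set of paralogs and core genes whatever their values. Values of 1 gene are not reported here. The genes, the lists and these rules were chosen with earlier results of these data known. Libraries held 2330698, 3808360 and 2537567 UMIs, with a median of 1460, 1747 and 1409 UMIs per cell used. Gene positions are from the GRCm38 annotation, promoter sequences from RefSeq (GRCm38.p6). In the last 400 bases of their transcripts 37 of the 85 genes share a 60-base word with another gene, and 22 overlap another listed gene.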

Additional observations from a re-analysis of the deposited data

Results flagged for a closer look

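Cox5a, a structural subunit of complex IV, moved in opposite directions between the control and runner libraries in different classes. In neuroblast-like cells it was at 250 CPM in control and 399 CPM in runner, a ratio of 1.60 with a 95% counting interval of 0.866 to 3.28, from 11 and 136 UMIs. In oligodendrocyte-like cells it was at 309 and 207 CPM, a ratio of 0.669 (0.415 to 1.11), from 26 and 58 UMIs. Both intervals include 1, and the difference between the classes was not tested, since each group has 1 library.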

How the results depend on the processing

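Counts out of the genes tested are given as higher and lower. Neuron-like against glia-like classes gave 42 and 1 with library totals alone, 4 higher with no filter, 12 higher with classes from marker lists per cell and 14 and 3 under 5% mt- UMIs, and leaving out 1 library gave 4 to 11 and 3 to 7. Mature neuron against neuroblast-like classes gave 14 higher with no filter and 21 under 5% mt-, and 11 to 37 without 1 library. Its 3 lower genes became 1 with DESeq2 size factors, without the library block, with marker lists and without any 1 library, and 0 with DESeq2's test. Microglia-like against other glia gave 1 and 65 with library totals alone, 5 and 19 with no filter, and 1 higher with DESeq2 size factors, DESeq2's test, no library block and under 5% mt-. Astrocyte-like against oligodendrocyte lineage gave 15 higher with library totals alone, 11 under 5% mt- and 20 to 27 without 1 library. Ndufa8 turned to 0.040 between neuron-like and glia-like classes with library totals alone. In the other alternatives these counts moved by at most 1.5 times.

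The mean log2 ratio of runner to control was -0.17 without mt- and ribosomal UMIs, -0.18 under 20% mt-, -0.071 under 5% mt- (neuroblast-like 0.135, granule neuron-like 0.0035) and -0.020 without the 20 genes of mt-rich barcodes, an alternative added after seeing the data (neuroblast-like 0.0098, microglia-like 0.067, precursor-like 0.073). With the aged library as reference it was 0.15, and by class 0.16 (neuroblast-like), 0.13 (granule neuron-like), 0.28 (Cajal-Retzius-like), 0.15 (microglia-like), 0.035 (astrocyte-like), 0.076 (oligodendrocyte-like) and 0.21 (precursor-like). With that reference Ndufv3 (0.36) and Ndufa2 (0.35) in granule neuron-like, Ndufv2 (0.53) in Cajal-Retzius-like, Ndufc1 (0.55) in astrocyte-like and Ndufa12 (0.069) in oligodendrocyte-like cells also changed sign. The mean for aged was -0.15 with runner as reference, where Ndufab1 in microglia-like cells was at -0.050. Pairs past the fold in runner were 29 higher at 20 UMIs, 3 higher and 16 lower at 100 UMIs, 48 and 113 at the smaller fold tried and 3 and 1 at 2-fold. In aged they were 15 and 85 at 20 UMIs, 0 and 4 at 100 UMIs, 14 and 91 at the smaller fold and 0 and 4 at 2-fold. The cause of these shifts was not tested. Where fewer UMIs, cells or genes enter, fewer are available to be called.

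No paired analysis was possible because each group has 1 library, for runner and aged against control. Comparisons between classes had the library as a block. Under 20% mt- no granule neuron class could be named, so comparisons with it could not be fitted, and the means cover 6 classes. Depth limits the neuroblast-like and granule neuron-like classes of the aged library, with 12 and 14 cells.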
